A study of Homo sapiens with 14 samples.

Results

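Serine/arginine-rich splicing factors (SR proteins, SRSF genes) and heterogeneous nuclear ribonucleoproteins (hnRNPs, HNRNP genes) were followed in HEK293 cells, a human embryonic kidney line, that stably carried HOXD9 or HOXD13. The members were all genes of the array annotation whose symbol is SRSF followed by a number or begins with HNRNP, each read by its brightest probe set that names a single gene. This gave 31 of 19775 genes, 10 SR and 21 hnRNP. Of these, 30 of the 10349 genes tested passed a filter on dim values (a log2 value of 5 or more on 3 or more of the 14 arrays). By its symbol the rule also takes in HNRNPD-DT, a divergent transcript beside HNRNPD and no hnRNP itself, which is counted here with the hnRNP genes. The pseudogene HNRNPA3P1 did not pass and read 2.66 to 3.01. A further 11 symbols, among them SRSF2, SRSF9 and HNRNPH2, had only probe sets shared between genes and have no value here.

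Total RNA from 14 cultures was measured on 1 array each. HOXD9 carried an HA tag and HOXD13 a V5 tag, and each HOX group held 4 lines: a mixed transfected population (the mix) and clones a, b and c, each a single line picked out of that mix. The controls were 3 arrays of cells with the HA vector and 3 with the V5 vector, described as biological replicates. All groups shared the parental line, the RPMI 1640 medium with 10% serum and the G418 drug selection, and the tag sets differ in vector as well as in the HOX gene. Clones taken from their own mix are not fully independent of it, so the p-values reflect how these samples vary and no more.

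SR proteins bind exonic enhancer sequences through RNA recognition motifs and recruit the splicing machinery through a domain rich in arginine and serine. Many hnRNPs bind silencer sequences and oppose exon inclusion, although both families act either way depending on where they bind, and both also take part in export, translation and decay of messenger RNA. Dividing cells express most members of both families at high levels, and many of the genes limit their own expression through exons that send the transcript to nonsense-mediated decay.

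The arrays are read here as log2 values from GCRMA, and the tag sets were normalized apart from each other (their upper quartiles were 6.27 for HA and 7.02 for V5), so every level was compared with the vector of its own tag. On its more responsive probe set HOXD9 read 2.73 on average in the HA vectors and 6.99 in the HOXD9 lines. On the other HOXD9 probe set these means were 4.22 and 4.40, with 5.74 in the V5 vectors and 5.92 in the HOXD13 lines. On its brightest probe set in the HOXD13 lines HOXD13 read 6.93 in the V5 vectors and 12.43 in the lines (12.24 in clone c). On another HOXD13 probe set the V5 vectors read 8.93 to 8.95, the mix and clones a and b 10.15 to 10.42, and clone c 8.87, so clone c was not raised there. The HEK293 markers VIM, KRT8, KRT18, CDH2 and NEFL were above 5 on all 14 arrays, while NEFM, PAX2 and LHX1 stayed below 5 on all. Of 7 fibroblast markers only COL1A1 passed 5 (5.30 to 8.12), and the 4 leukocyte and 2 squamous markers measured stayed below 5. Vector arrays differed less from each other than lines did, over all genes as over the members. The members had a median SD of 0.03 in both vector groups (n = 3; all genes 0.05 in both), 0.20 in the HOXD9 lines (all genes 0.27) and 0.19 in the HOXD13 lines (n = 4; all genes 0.26). HOXD13 clone c stood apart from its sister lines. The difference between the 3 prime and 5 prime probe sets of ACTB, a measure of RNA integrity and labelling, was 2.80 there, 1.82 to 2.13 in the other HOXD13 lines and 2.19 to 2.26 in the V5 vectors. The same difference was 1.70 in HOXD9 clone a and 2.10 to 2.35 in the other HOXD9 lines. Results are therefore given line by line and, where they change, without clone c.

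With HOXD13 4 hnRNP genes were lower and no SR gene passed (4 of 30 members, 13.3%, where 10.6% of all genes tested were called). With HOXD9 no member of either family passed (0 of 30, where 0.00966% of all genes were called). The genes lower with HOXD13 were HNRNPL, HNRNPLL, HNRNPU and HNRNPUL1, of which HNRNPL and HNRNPLL are close paralogs, as are HNRNPU and HNRNPUL1. Their promoters are shown because these 4 genes moved in the same direction. Each stretch is the 250 bases before the annotated start in the RefSeq promoter table for GRCh38.p14, read along the strand of the gene, taking the window listed first (2 windows are listed for HNRNPL and 3 for HNRNPUL1). The HNRNPL stretch is chr19:38852348-38852597 (minus strand), HNRNPLL chr2:38602929-38603178 (minus), HNRNPU chr1:244864544-244864793 (minus) and HNRNPUL1 chr19:41262307-41262556 (plus). Capitals mark the motifs listed after the sequences.
HNRNPL: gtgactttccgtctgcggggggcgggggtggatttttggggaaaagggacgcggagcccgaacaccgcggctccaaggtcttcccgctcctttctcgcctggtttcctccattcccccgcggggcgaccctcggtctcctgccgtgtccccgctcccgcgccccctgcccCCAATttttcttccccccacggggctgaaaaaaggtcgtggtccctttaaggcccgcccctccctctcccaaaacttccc
HNRNPLL: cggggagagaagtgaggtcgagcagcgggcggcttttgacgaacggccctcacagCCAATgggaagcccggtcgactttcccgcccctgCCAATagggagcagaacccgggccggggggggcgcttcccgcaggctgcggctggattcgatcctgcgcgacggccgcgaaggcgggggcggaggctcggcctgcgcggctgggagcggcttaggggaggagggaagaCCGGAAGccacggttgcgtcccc
HNRNPU: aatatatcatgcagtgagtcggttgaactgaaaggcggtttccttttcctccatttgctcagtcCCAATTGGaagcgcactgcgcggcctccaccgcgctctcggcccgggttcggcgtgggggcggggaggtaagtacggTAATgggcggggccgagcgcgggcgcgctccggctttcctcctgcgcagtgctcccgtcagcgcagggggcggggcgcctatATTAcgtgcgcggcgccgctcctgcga
HNRNPUL1: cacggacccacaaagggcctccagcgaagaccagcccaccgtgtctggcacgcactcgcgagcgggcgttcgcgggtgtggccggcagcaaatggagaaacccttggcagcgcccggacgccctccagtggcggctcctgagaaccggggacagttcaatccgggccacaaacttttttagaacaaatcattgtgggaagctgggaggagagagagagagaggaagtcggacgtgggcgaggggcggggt
The motifs were searched on both strands: TAAT (the core bound by many homeodomains), CAATAAA (a site of the posterior HOX type), CCAAT (the CCAAT box), TATAAA (the TATA box) and CCGGAAG (an ETS site). The HNRNPL stretch holds 1 CCAAT and no other of these motifs. The HNRNPLL stretch holds 2 CCAAT and 1 CCGGAAG. The HNRNPU stretch holds 2 TAAT, and 2 CCAAT that overlap on opposite strands in 1 palindrome. The HNRNPUL1 stretch holds none. Among the 29 members with a promoter window CCAAT was in 14 (48.3%, against 33% of 27305 windows of the table), TAAT in 8 (27.6% against 48.2%), TATAAA in 5 (17.2% against 11.1%), CCGGAAG in 5 (17.2% against 8.82%) and CAATAAA in 1, HNRNPC (3.45% against 3.78%). The members' windows had a median GC content of 66%, against 58% in all windows. These are matches of letters in a fixed window and describe neither binding nor its absence.

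HNRNPL, which binds CA-rich RNA and can enhance or silence the exons beside it, read 10.95, 10.97 and 10.94 in the V5 vectors and 9.99, 9.81, 10.20 and 10.17 in the HOXD13 mix and clones a, b and c. All 4 lines lay below all 3 vectors, clone a lowest. HNRNPL fell by 0.91 (log2, SE 0.16, 1.88-fold, 95% interval -1.26 to -0.56, limma adjusted p = 0.00551). In the HA set it read 10.29, 10.35 and 10.42 in the vectors and 10.50, 10.42, 10.24 and 11.06 in the HOXD9 mix and clones a, b and c. There the groups overlapped, with clone c alone well above the vectors, and the effect of 0.20 did not pass (adjusted p = 0.413). A second HNRNPL probe set, dimmer than the first, gave -0.91 as well with HOXD13 and was called among the probe sets (adjusted p = 0.00664). HNRNPL kept its call in all 24 alternative settings tried, with adjusted p-values up to 0.0337.

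HNRNPLL, the paralog of HNRNPL known for skipping exons of PTPRC in lymphocytes, had the largest difference of any member. It read 10.74, 10.65 and 10.67 in the V5 vectors and 9.15, 8.27, 8.49 and 10.27 in the HOXD13 mix and clones a, b and c. All lines were lower than the vectors, but clone c, at -0.41 from the vector mean, was far closer to them than the mix (-1.53) and clones a (-2.42) and b (-2.19). HNRNPLL fell by 1.64 (SE 0.34, 3.12-fold, limma adjusted p = 0.0106). Without clone c, whose ACTB difference is given above, the value was -2.05 (adjusted p = 6.82e-06). With the ACTB difference as a covariate HNRNPLL was called lower too. In the HA set it read 10.07, 10.09 and 10.15 in the vectors and 9.84, 9.90, 9.74 and 9.87 in the HOXD9 lines. The HOXD9 lines were all slightly lower than their vectors without overlap, and the effect of -0.27 did not pass (adjusted p = 0.597). The other HNRNPLL probe sets that passed the filter gave -1.52 (adjusted p = 0.0374) and -1.62 (adjusted p = 0.0663) with HOXD13. On the last of these clone c was above the V5 vector mean (0.19). PTPRC, the target named above, stayed near the background level of the array (2.44 to 2.51). The HNRNPLL call was lost when the V5 set was fitted alone (adjusted p = 0.0729).

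HNRNPU, a nuclear scaffold protein that binds chromatin and RNA, read 13.74, 13.75 and 13.75 in the V5 vectors and 13.48, 13.31, 13.38 and 13.54 in the HOXD13 mix and clones a, b and c. The groups did not overlap, and the difference was small beside those of HNRNPL and HNRNPLL. HNRNPU fell by 0.31 (SE 0.09, 1.24-fold, limma adjusted p = 0.0434). In the HA set it read 13.24, 13.25 and 13.26 in the vectors and 13.12, 13.23, 13.03 and 13.24 in the HOXD9 lines. All 4 HOXD9 lines were lower than the vectors, 2 of them (clones a and c) by under 0.03, and the effect of -0.10 did not pass (adjusted p = 0.466). The HNRNPU call was held by 11 of 24 alternatives. It ended without any 1 of the 6 vector arrays, without the HOXD9 mix, and without the HOXD13 mix, clone a or clone b (adjusted p 0.0600 to 0.150), and with another probe set in place of the one chosen, which may bind related transcripts (-0.16, adjusted p = 0.388). The HA vectors and the HOXD9 mix enter this contrast only through the estimate of spread that all groups share. Without any 1 of them the effect stayed at -0.31. The HNRNPU call also ended with each array centred on its median (adjusted p = 0.0736) and with the V5 set fitted alone (adjusted p = 0.0646). Its 4 measured probe sets gave -0.31, -0.16, -0.81 and -1.01, and none was called among the probe sets (adjusted p = 0.0547, 0.415, 0.145 and 0.0600). On the probe set at -0.81 clone c was above the V5 vector mean (0.11).

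HNRNPUL1, a relative of HNRNPU that acts in RNA processing and at DNA breaks, read 10.92, 10.96 and 10.89 in the V5 vectors and 10.46, 10.48, 10.50 and 10.31 in the HOXD13 mix and clones a, b and c. All lines were lower than all vectors, and here clone c was the lowest. HNRNPUL1 fell by 0.49 (SE 0.13, 1.40-fold, limma adjusted p = 0.0330). In the HA set it read 10.61, 10.55 and 10.58 in the vectors and 10.62, 10.37, 10.46 and 11.00 in the HOXD9 lines. HOXD9 clones a and b lay below and clone c above the vectors, and the effect of 0.03 did not pass (adjusted p = 0.883). A second probe set gave -0.58 with HOXD13 and was also called (adjusted p = 0.0380). The call of HNRNPUL1 was held by 15 of 24 alternatives. It ended without any 1 of the 6 vectors and without the HOXD13 mix, clone a or clone b (adjusted p 0.0529 to 0.124). The HA vectors enter this contrast only through the shared estimate of spread. Without any 1 of them the effect stayed at -0.49.

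**Figure D1:**
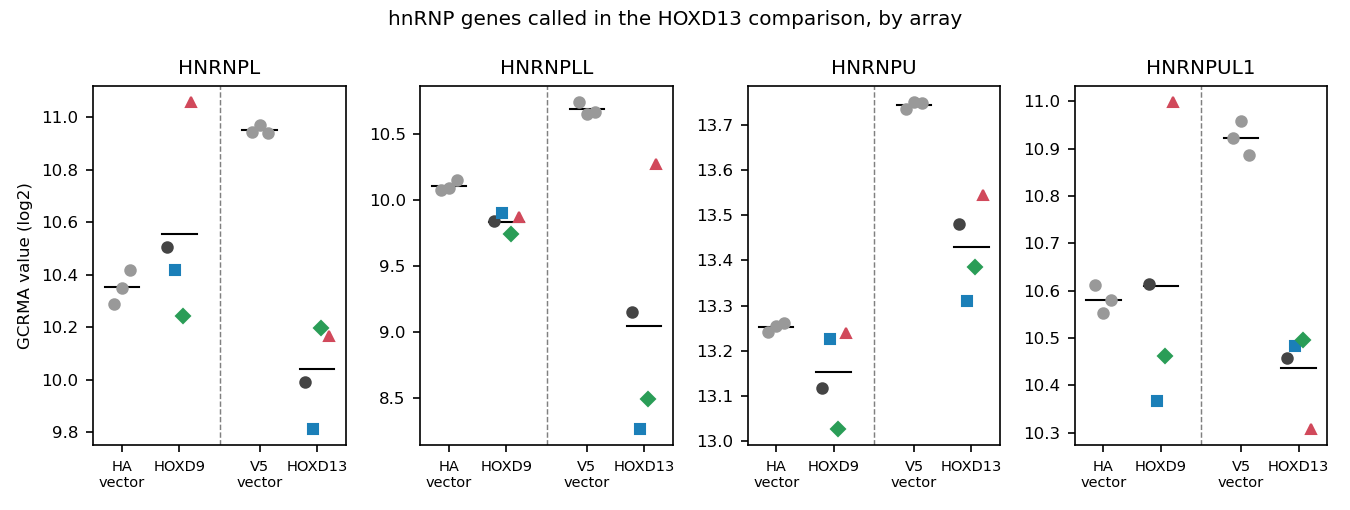
GCRMA values (log2, vertical axis, a separate scale for each gene) of the 4 hnRNP genes called lower with HOXD13, 1 point per array and a bar at each group mean. Vectors are grey circles and lines are the mix (dark circle) and clones a (square), b (diamond) and c (triangle); in every panel all HOXD13 lines lie below the 3 V5 vectors. In the HNRNPLL panel clone c, at 10.27, is the line closest to the vectors.

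The share of members called with HOXD13, given above, is near that of all genes and is no result about the families as such. All 4 were lower, a direction that 7.76% of all genes took against 2.88% called higher. Of the 20 hnRNP genes tested 4 fell, 0 rose and 16 did not pass. Of the 10 SR genes 0 were called by limma, with 1, SRSF4, at an unadjusted p under 0.05. Lines and vectors were fully separated in 7 members below (HNRNPC, HNRNPL, HNRNPLL, HNRNPM, HNRNPU, HNRNPUL1 and HNRNPUL2, 23.3%, background 20.3%) and in 4 above (HNRNPF, SRSF1, SRSF3 and SRSF7, 13.3%, background 8.59%). Of these, HNRNPUL2, SRSF1, SRSF3 and SRSF7 had HOXD13 effects of both signs over their measured probe sets. The median effect was -0.11 over the hnRNP genes and 0.14 over the SR genes, against -0.03 over all genes.

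SRSF4, an SR protein with a long arginine-serine domain, had the largest SR effect with HOXD13. It read 11.79, 11.81 and 11.87 in the V5 vectors and 12.27, 12.33, 12.45 and 11.81 in the mix and clones a, b and c. The mix and clones a and b were above all vectors, and clone c lay within them. The effect of 0.39 (SE 0.14, 95% interval 0.08 to 0.70) did not pass (limma adjusted p = 0.0988), and without clone c it was 0.53 (adjusted p = 0.00213). On the dimmer SRSF4 probe sets measured, clone c was instead the highest HOXD13 line, at 0.91 and 0.70 from the vector mean. The place of clone c and the call without it were thus read on the brightest probe set alone. In the HA set SRSF4 read 11.30, 11.31 and 11.35 in the vectors and 11.34, 11.58, 11.29 and 11.65 in the HOXD9 lines. Clones a and c of HOXD9 were higher, clone b was lower and the mix lay within the vectors (0.15, adjusted p = 0.494).

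SRSF11, an SR protein that can bind the splicing factor at the 3 prime splice site, read 12.60, 12.64 and 12.61 in the V5 vectors and 12.92, 12.63, 12.66 and 13.32 in the HOXD13 lines. The mix and clone c were clearly higher and clone a lay within the vectors. The effect of 0.27 did not pass (limma adjusted p = 0.317; 95% interval -0.09 to 0.62). SRSF8, an intronless relative of SRSF2, read 10.65, 10.65 and 10.56 in the V5 vectors and 10.72, 10.96, 11.25 and 10.32 in the HOXD13 lines. Clone c was below and the other lines above all vectors, and the effect of 0.19 did not pass (adjusted p = 0.543). In the HA set SRSF8 read 9.98, 9.98 and 10.03 in the vectors and 10.05, 9.73, 10.04 and 10.21 in the lines, with clone a lower and the others higher (0.01, adjusted p = 0.972). SRSF8 is read by a probe set that may bind related transcripts, as are HNRNPA1, HNRNPC, HNRNPDL, HNRNPU and SRSF7.

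The remaining SR genes had HOXD13 effects between -0.18 (SRSF12) and 0.15, and the remaining hnRNP genes between -0.38 (HNRNPA3) and 0.38 (HNRNPF). HNRNPF, which binds runs of G, was above its vectors in all 4 lines and missed the threshold (0.38, SE 0.14, adjusted p = 0.0982). SRSF1, the first SR protein described, was above in all 4 lines by 0.12 to 0.19 (0.15, adjusted p = 0.313), and SRSF3, a short SR protein that regulates its own splicing, by 0.10 to 0.19 (0.15, adjusted p = 0.291).

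**Figure D2:**
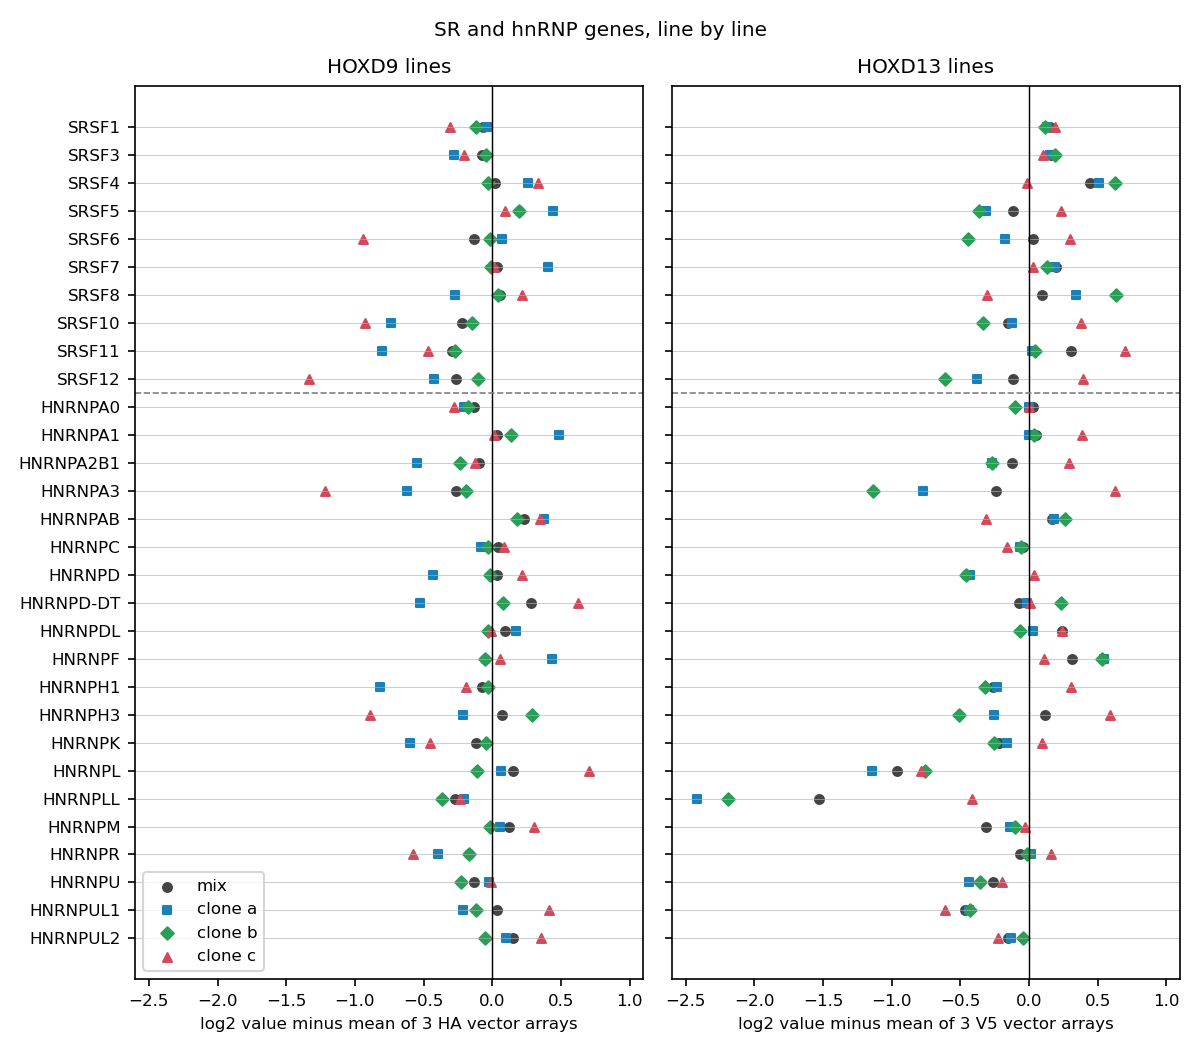
Shift of each line from the mean of its 3 vector arrays (log2, horizontal axis) for the 10 SR genes (above the dashed line) and 20 hnRNP genes tested, HOXD9 at left and HOXD13 at right, 1 symbol per line. HNRNPLL lies farthest left with HOXD13, in the mix and clones a and b, followed by HNRNPL clone a and HNRNPA3 clone b, both at -1.14. HOXD9 clone c reaches -1.33 for SRSF12 and -1.21 for HNRNPA3.

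HOXD13 clone c was on the other side of the vector mean from the mix, clone a and clone b in 11 of 30 members (36.7%, 41.6% of all genes). These were SRSF4, SRSF5, SRSF8, SRSF10, SRSF12, HNRNPA2B1, HNRNPA3, HNRNPAB, HNRNPD, HNRNPH1 and HNRNPK. HNRNPA3, a partner of HNRNPA2B1 in the A/B group, read 12.32, 12.32 and 12.24 in the V5 vectors and 12.05, 11.52, 11.16 and 12.92 in the HOXD13 mix and clones a, b and c. Clone c was thus the highest array of the set and clone b the lowest, and the effect was -0.38 (SE 0.34, adjusted p = 0.511). HNRNPK, which binds C-rich RNA, read 13.51, 13.54 and 13.49 in the V5 vectors and 13.29, 13.35, 13.25 and 13.61 in the HOXD13 lines, again with clone c above and the others below (-0.14, adjusted p = 0.570).

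Without clone c the HOXD13 lines had 8 of 30 members called, 2 higher (HNRNPF and SRSF4) and 6 lower (HNRNPA3, HNRNPD, HNRNPL, HNRNPLL, HNRNPU and HNRNPUL1). Of all genes 35.8% were called in that setting, so the members' share (26.7%) was below the background. HNRNPD, which speeds the decay of AU-rich messenger RNAs, gave -0.45 (limma adjusted p = 0.0195) and HNRNPA3 -0.72 (adjusted p = 0.0413). With all lines 0 SR genes passed, without clone c 1 did. Clone c also had the highest ACTB difference of the 14 arrays, and the part of that difference in these changes was not tested. With that difference as a covariate in the fit of all 14 arrays 8 members were called too, HNRNPF, SRSF4 and SRSF11 higher and HNRNPD, HNRNPL, HNRNPLL, HNRNPU and HNRNPUL1 lower, among 25.1% of all genes.

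With HOXD9 0 of 30 members were called by limma, where 0.00966% of all genes (1 gene) were. At an unadjusted p under 0.05 there were 6 members (20.0%, 23.5% of all genes): SRSF10, SRSF11, HNRNPA0, HNRNPAB, HNRNPK and HNRNPR. Lines and vectors were fully separated in 12 members below (40.0%, background 14.1%) and 2 above (HNRNPAB and SRSF5, 6.67%, background 22.4%), together 14 (46.7%, background 36.6%). The 12 were SRSF1, SRSF3, SRSF10, SRSF11, HNRNPA0, HNRNPA2B1, HNRNPA3, HNRNPH1, HNRNPK, HNRNPLL, HNRNPR and HNRNPU. This is the count on 1 chosen probe set per gene. Of the 12 only SRSF10, HNRNPA3, HNRNPLL and HNRNPR had HOXD9 effects of 1 sign on all their measured probe sets. The median effect was -0.14 over the SR genes and -0.02 over the hnRNP genes, against 0.08 over all genes. None of these counts was tested, and the single effects did not pass.

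SRSF10, a splicing repressor when dephosphorylated in heat shock and mitosis, read 10.72, 10.62 and 10.61 in the HA vectors and 10.43, 9.91, 10.50 and 9.72 in the HOXD9 mix and clones a, b and c. All lines were below all vectors, clones a and c by the most. The effect was -0.51 (SE 0.20, 95% interval -0.93 to -0.09, limma adjusted p = 0.167). In the V5 set it read 11.43, 11.46 and 11.45 in the vectors and 11.29, 11.32, 11.11 and 11.83 in the HOXD13 lines, clone c above and the others below (-0.06, adjusted p = 0.886). With HOXD9 the other measured SRSF10 probe sets gave effects of -0.63 to -0.17, with clone c lower on all of them. Clone b was at 0.28, 0.11, 0.27 and -0.29 on these, so not every line was lower there.

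SRSF11 read 11.96, 11.96 and 11.99 in the HA vectors and 11.68, 11.17, 11.70 and 11.50 in the HOXD9 mix and clones a, b and c. Every line was lower, clone a the most. The effect of -0.46 (SE 0.16, 95% interval -0.81 to -0.10) did not pass with all arrays (limma adjusted p = 0.158). Without HOXD13 clone c, an array that enters this contrast only through the shared estimate of spread, it was called at the same size (adjusted p = 0.0428), together with HNRNPAB (0.28, adjusted p = 0.0417), among 10.8% of all genes. On the dimmer SRSF11 probe sets the HOXD9 effects were -0.68 and 0.04, and clone b was above the vector mean (0.21 and 0.44).

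SRSF12, an SR protein that opposes the action of other SR proteins, is dim on this array. It read 5.54, 5.25 and 5.22 in the HA vectors and 5.07, 4.91, 5.23 and 4.0 in the HOXD9 lines. Clone b lay within the vectors and clone c was the lowest by far (-0.53, SE 0.28, adjusted p = 0.246). In the V5 set it read 6.18, 6.37 and 6.46 in the vectors and 6.22, 5.96, 5.73 and 6.73 in the HOXD13 lines, which spread to both sides of the vectors. SRSF5, which is induced by growth signals, read 10.46, 10.43 and 10.43 in the HA vectors and 10.64, 10.88, 10.63 and 10.54 in the HOXD9 lines. All HOXD9 lines were higher, and the effect of 0.23 did not pass (adjusted p = 0.289). In the V5 set SRSF5 read 11.28, 11.25 and 11.21 in the vectors and 11.13, 10.93, 10.88 and 11.48 in the HOXD13 lines, clone c higher and the others lower (-0.14, adjusted p = 0.553).

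HNRNPA3 had the largest hnRNP effect with HOXD9 and read 11.57, 11.52 and 11.49 in the HA vectors and 11.26, 10.90, 11.34 and 10.31 in the lines. All lines were lower, clone c by over 1, and with this spread the effect of -0.57 (SE 0.34) did not pass (limma adjusted p = 0.291). On another HNRNPA3 probe set clone a was higher (0.19), and on the remaining 1 every line was lower. HNRNPR, an RNA-binding protein close to the SYNCRIP gene product, read 12.78, 12.84 and 12.81 in the HA vectors and 12.64, 12.42, 12.64 and 12.23 in the HOXD9 lines. All lines were lower (-0.33, SE 0.11, adjusted p = 0.151). Other HNRNPR probe sets gave -0.05, with clone a at 0.46, and -0.56, with clone b at 0.06. In the V5 set HNRNPR read 13.64, 13.65 and 13.59 in the vectors and 13.56, 13.64, 13.61 and 13.79 in the HOXD13 lines, around their vectors (0.02, adjusted p = 0.919). HNRNPK read 12.67, 12.71 and 12.71 in the HA vectors and 12.58, 12.10, 12.65 and 12.24 in the HOXD9 lines. On this probe set all lines were again lower, clones a and c the most (-0.30, SE 0.14, adjusted p = 0.204). A second HNRNPK probe set, nearly as bright, read 12.53 to 12.58 in the HA vectors and 12.60 to 12.78 in the lines. There every HOXD9 line was higher than every vector (0.11). The other hnRNP genes had HOXD9 effects between -0.28 (HNRNPH1) and 0.28 (HNRNPAB), and the other SR genes between -0.25 (SRSF6) and 0.15.

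**Figure D3:**
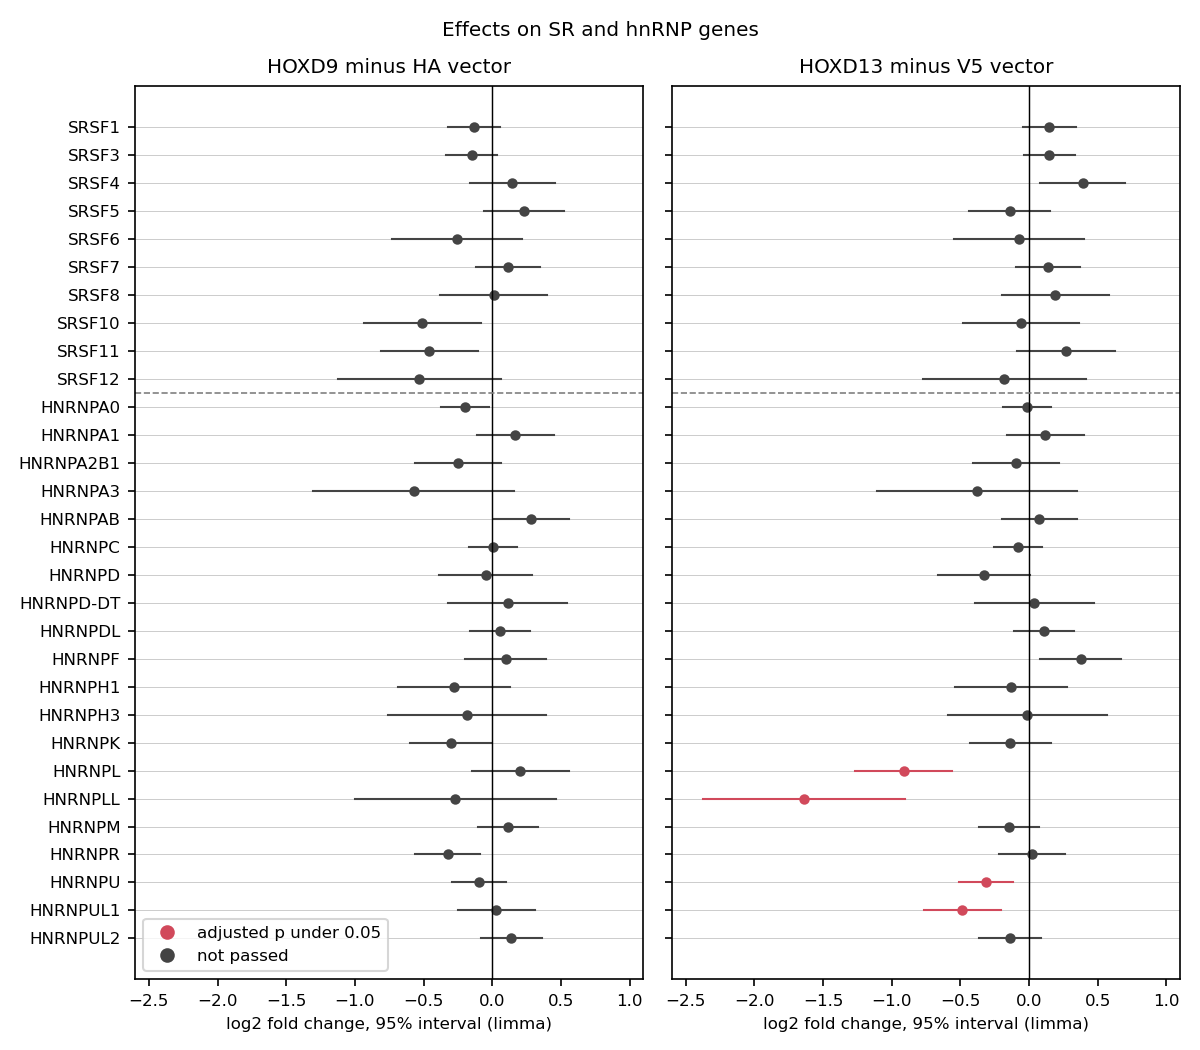
Fitted effects on the 30 members tested (log2 fold change, horizontal axis) with 95% intervals from limma, HOXD9 minus HA vector at left and HOXD13 minus V5 vector at right, SR genes above the dashed line. Red marks an adjusted p under 0.05: 4 hnRNP genes with HOXD13 and no member with HOXD9.

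The HOXD9 and HOXD13 effects share no control arrays and were set against each other in 1 contrast, the HOXD13 effect minus the HOXD9 effect. HOX gene, tag, vector and normalization set all change together in this contrast, so their parts cannot be told apart. HNRNPL alone among the members passed, with a difference of -1.12 (SE 0.23, limma adjusted p = 0.0118), 1 of 30 (3.33%) where 9.63% of all genes were called. It was called in all 23 alternatives tried (adjusted p up to 0.0396). For the other members called with HOXD13 the difference did not pass: HNRNPLL -1.37 (95% interval -2.41 to -0.33, adjusted p = 0.0905), HNRNPUL1 -0.52 (-0.91 to -0.12, adjusted p = 0.0962) and HNRNPU -0.21 (-0.49 to 0.06, adjusted p = 0.312). Without HOXD13 clone c 4 members passed among 22.3% of all genes: HNRNPL (-1.16), HNRNPLL (-1.78) and SRSF5 (-0.50) lower, SRSF11 (0.58) higher.

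Of the SR genes SRSF11 had the largest difference, 0.73 (95% interval 0.22 to 1.23, limma adjusted p = 0.0673), and SRSF10 (0.45, adjusted p = 0.327) and SRSF5 (-0.37, adjusted p = 0.240) followed. SRSF1, SRSF3 and SRSF11 were below the HA vector mean in every HOXD9 line and above the V5 vector mean in every HOXD13 line (3 of 30 members, 10.0%, background 2.72%), and none of their differences passed. This was read on the brightest probe set of each gene, and none of their other measured probe sets kept the pattern. With HOXD9, 1 of SRSF3 gave 0.26 and 1 of SRSF11 gave 0.04, and with HOXD13, 1 of SRSF1 gave -0.37. The median difference was 0.26 over the SR genes, -0.06 over the hnRNP genes and -0.04 over all genes. Of the 10 SR genes 1 was below 0, against 53.3% of all genes, and this count was not tested. It was read on the brightest probe set of each gene. Of the other measured SR probe sets most were above 0, but 1 each of SRSF3, SRSF6 and SRSF7 was below.

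Members can be read by several probe sets, which lie in different parts of the transcripts. The 31 members have 117 single-gene probe sets, of which 92 passed the filter, and 27 members had at least 2. With HOXD9, probe sets of 18 members gave effects of both signs: SRSF1, SRSF3, SRSF4, SRSF6, SRSF7, SRSF8, SRSF11, HNRNPA0, HNRNPA1, HNRNPA2B1, HNRNPC, HNRNPD, HNRNPDL, HNRNPH1, HNRNPH3, HNRNPK, HNRNPM and HNRNPU. With HOXD13 this held for 11: SRSF1, SRSF3, SRSF7, SRSF10, SRSF12, HNRNPA0, HNRNPA2B1, HNRNPD, HNRNPDL, HNRNPH3 and HNRNPUL2. The fitted HOXD13 effects of HNRNPL, HNRNPLL, HNRNPU and HNRNPUL1 were thus of 1 sign on all their measured probe sets. Single lines were not, as clone c was above the V5 vector mean on 1 probe set of HNRNPLL (0.19) and 1 of HNRNPU (0.11). Probe sets called with HOXD13 (background 8.68%) were 2 of HNRNPL, 2 of HNRNPLL and 2 of HNRNPUL1, and of no other member. With HOXD9 0 were called (background 0.0303%), and in the contrast of the effects both of HNRNPL and 1 of HNRNPUL1 were (background 6.56%).

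A set of dimmer probe sets set HOXD13 clone c apart from clones a and b, a pattern chosen after its values were seen. In 6 of the 92 (6.52%, background 2.70%) clones a and b were below the V5 vector mean while clone c was over 1 above it. For HNRNPA2B1 the probe set gave 0.63, -1.20, -0.99 and 2.04 (mix, a, b, c), although the brightest probe set of the gene was within 0.30 of the vectors in every line. A probe set of HNRNPDL gave 0.21, -1.12, -0.85 and 1.86 in the same order, 1 of HNRNPD 0.48, -0.77, -0.85 and 1.71, and 1 of SRSF1 0.47, -0.05, -0.09 and 1.49. The 2 of HNRNPA1, a repressor that competes with SRSF1 for splice sites, gave 1.52 and 1.93 in clone c. The ACTB difference is also highest in clone c, and its part in these values was not tested. Over all 92, clone c was opposite to the mix, a and b in 29 (31.5%, background 41.0%).

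**Figure D4:**
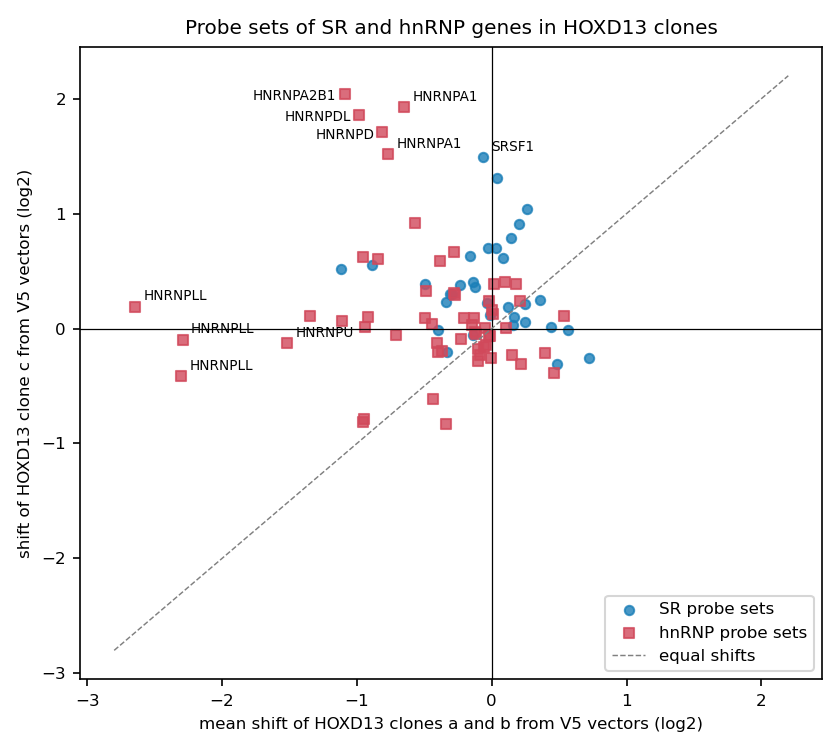
Shifts from the V5 vector mean (log2) of the 92 member probe sets that passed the filter, the mean of HOXD13 clones a and b on the horizontal axis and clone c on the vertical axis, circles for SR and squares for hnRNP probe sets. Probe sets of HNRNPA1, HNRNPA2B1, HNRNPD, HNRNPDL and SRSF1 lie at upper left with clone c over 1, while those of HNRNPLL lie far left, with clone c at -0.41, -0.10 and 0.19.

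Genes that work with the SR and hnRNP proteins were read from 7 lists: SR protein kinases and import, SR-related proteins, other RNA-binding splicing regulators, proteins of the U1 and U2 particles, Sm and LSm proteins, the tri-snRNP and catalytic proteins, and nonsense-mediated decay factors. Of their 124 genes 113 were tested. With HOXD9 0 were called by limma. With HOXD13 2 rose and 2 fell (3.54%, background 10.6%), none of them among the 8 kinase and import genes, the 23 SR-related genes, the 21 U1 and U2 genes or the 14 Sm and LSm genes. MATR3, a nuclear matrix protein that binds RNA, rose by 0.75 (SE 0.13, adjusted p = 0.00552), with all lines higher (0.78, 0.92, 0.94 and 0.36 in the mix and clones a, b and c). SMG8, a subunit of the kinase complex of nonsense-mediated decay, rose by 0.89 (SE 0.26, adjusted p = 0.0485), although clone c was at -0.10 and the others between 1.03 and 1.37. Its partner SMG9 fell by 0.72 (SE 0.15, adjusted p = 0.0102), in all 4 lines, and USP39, a tri-snRNP protein, fell by 0.43 (SE 0.11, adjusted p = 0.0291). The SMG8 call was held by 10 of 24 alternatives. Of those that left out a single array it was held without clone c of either HOX gene. It ended without any of the other 12 arrays (adjusted p up to 0.151). The HA vectors and HOXD9 lines enter this contrast only through the shared estimate of spread. Without any 1 HA vector the SMG8 effect stayed at 0.89. The SMG8 call also ended without a filter (adjusted p = 0.121) and with the V5 set fitted alone (adjusted p = 0.153). The call of USP39 ended without any V5 vector or the HOXD13 mix, clone a or clone b (adjusted p up to 0.121) and that of SMG9 without V5 vector 3 (adjusted p = 0.0594).

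In the contrast of the effects 2 of the 113 were higher and 5 lower (6.19%, background 9.63%). The largest were TAF15, an RNA-binding protein (-1.18, SE 0.22, limma adjusted p = 0.00728), and SMG9 (-1.13, SE 0.21, adjusted p = 0.00728). TAF15 was higher in all HOXD9 lines (0.46 to 0.83) and lower in all HOXD13 lines (-0.84 to -0.07), but with the mean of its probe sets the difference was -0.20 and did not pass (adjusted p = 0.792). The median HOXD9 effect was -0.15 over the kinase and import list, -0.02 over the SR-related proteins, 0.21 over the U1 and U2 proteins and 0.32 over the tri-snRNP and catalytic proteins. With HOXD13 these medians were 0.02, 0.14, -0.01 and 0.06.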

How the data were processed

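The deposited values are log2 expression values of 54675 probe sets on 14 arrays. The authors made them with GCRMA, per the submitters' processing notes. The software version is not given in the sources used here. The log2 scale was read from the values, whose range is 1.83 to 15.5. Within each tag set the sorted values were the same to within 0.00195, so sets were normalized separately. The number of arrays sets the precision. Gene symbols came from the platform annotation of 2016, in which 41097 probe sets name 1 gene. The 62 array controls were left out.

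A model of 4 group means was fitted to the 10349 genes with limma 3.58.1 (lmFit, eBayes) in R 4.3.3, leaving 10 residual degrees of freedom. All groups shared a single estimate of spread per gene, although the vector arrays varied less than the lines. Tests were two-sided and adjusted by Benjamini-Hochberg over all genes, and called means an adjusted p under 0.05. All fits of probe sets ran over 19816. Effects and shifts are differences of log2 values. Arrays are given for members called in any contrast and the 3 largest effects per family and contrast. Members whose probe sets differ in sign and, per contrast, the 2 largest called genes of the splicing lists are named. USP39, SMG9 with HOXD13, HNRNPF, SRSF1, SRSF3, HNRNPAB, HNRNPD and others outside that rule were named after their values were seen. The members and lists were chosen with earlier results of these data known. The code was tested on simulated data, with pass limits set only for groups of equal spread, which these groups do not have. Values were read with the package data.table (version 1.17.8), and figures drawn with matplotlib 3.10.9 in Python 3.11.15. Alternatives were the filter, the probe set rule, centring, the samples fitted, weights, the prior and ACTB.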

Additional observations from a re-analysis of the deposited data

Results flagged for a closer look

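In 6 of 60 member groups of 4 lines a single line lay far from the others, 10.0% against 7.80% of such groups over all genes tested, where chance alone gives about 5%. In the HOXD13 lines these were 5 of 30 members (16.7%, against 8.38% of all genes), and in the HOXD9 lines 1 of 30 (3.33%, against 7.22%). Genes share the arrays, so these groups are not independent. SRSF7 in HOXD9 clone a was 0.41 above the HA vector mean (log2), with the other lines between -0.01 and 0.04. The other 5 were all in HOXD13 clone c, the outlying line in 7.31% of all genes. HNRNPA1 was at 0.39 there, with the others between 0.00 and 0.05. HNRNPH1, which binds runs of G, was at 0.31, with the others between -0.32 and -0.24. HNRNPAB was at -0.31, with the others between 0.17 and 0.26. HNRNPC, which binds runs of U, was at -0.16, with the others between -0.06 and -0.05. HNRNPD was at 0.038, with the others between -0.46 and -0.43.

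By limma's test of the difference the HOXD13 effect differed from the HOXD9 effect in 1 of 30 members (3.33%) and 7 of 113 genes of the splicing lists (6.19%), below the 9.63% of all genes. The member was HNRNPL (-1.12). In the other splicing lists the difference was -1.18 for TAF15, -1.13 for SMG9, -0.76 for RALY, a relative of HNRNPC, -0.59 for USP39, -0.49 for LSM4, 0.43 for SON, a scaffold of nuclear speckles, and 0.65 for MATR3. The calls of SON, RALY, LSM4, USP39 and MATR3 each ended without any 1 of the 6 vectors (adjusted p up to 0.122). SMG9 kept its call in all 23 alternatives and TAF15 in 22.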

How the results depend on the processing

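HNRNPL kept its direction and its call with HOXD13 in all 24 alternatives, HNRNPLL in 23, HNRNPUL1 in 15 and HNRNPU in 11, and no called member changed sign. The count of members called with HOXD13, 4 of 30 with all arrays (13.3%, 10.6% of all genes), was 2 when the V5 set was fitted alone (6.67%, 8.60% of all genes) and 8 with the ACTB difference as a covariate (26.7%, 25.1%). It was 8 (26.7%, 31.1%) without HOXD9 clone a and HOXD13 clones b and c, whose ACTB difference was over 0.4 from the median of their vectors (-0.61, -0.42 and 0.56), an alternative chosen after seeing the data. The count for the difference of effects, 1 with all arrays (3.33%, 9.63% of all genes), was 2 without a filter (6.45%, 4.24%), 3 with the mean of each gene's probe sets (10.0%, 9.81%), 4 with array weights per group (13.3%, 13.3%), 2 with a trended robust prior (6.67%, 9.35%), 4 with the ACTB covariate (13.3%, 19.6%) and 6 with those 3 arrays left out (20.0%, 19.5%). The causes were not tested. Leaving out each array in turn gave 0 to 2 members with HOXD9 (2 without HOXD13 clone c), 2 to 8 with HOXD13 and 1 to 4 for the difference (4 without HOXD13 clone c, 2 without HOXD9 clone a or b). It was 2 with HOXD13 without any 1 vector or without the HOXD13 mix, clone a or clone b, and 8 without HOXD13 clone c. The HA vectors enter that count only through the shared estimate of spread. Over all genes the share called with HOXD13 ran from 2.92% without V5 vector 3 to 35.8% without HOXD13 clone c, against 10.6%, and for the difference from 3.73% without V5 vector 3 to 22.3% without HOXD13 clone c. The median HOXD9 effect over the members was -0.17 without probe sets that may bind related transcripts, against -0.07. Probe sets near the array's background limit SRSF12 and HNRNPD-DT most. No paired analysis was possible because the HOX lines carry names and the vectors numbers, so the groups compared share no replicate numbers.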
